A study of Rattus norvegicus with 35 samples.

Results

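DNA replication and S phase genes were followed through 34 single-cell libraries and 1 bulk library of rat converted hypoblast stem cells. A list of 44 rat genes that duplicate DNA, supply its building blocks or open S phase was matched by transcript identifier to the read count table. A record was found for 42 of the 44, among 17198 genes and unmatched records in all, and none was matched for Rpa1 and Msh6. The members were listed by function. All 35 libraries came from 1 kind of culture, in which rat embryonic stem cells were converted with LIF, PDGF, EGF and serum and collected on day 12 of differentiation. No other treatment or genotype is labelled, and neither a culture number nor a batch is given. The cells therefore count as 1 sample and the bulk population as another, no difference could be tested, and every SD is the spread between cells, which are not replicates of the condition.

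Before a cell copies its DNA, the origin recognition complex, Cdc6 and Cdt1 load the Mcm helicase onto origins in G1, and cyclin E and E2F factors open S phase. Cdc45 and the GINS complex then activate the helicase, primase and DNA polymerase alpha lay down primers, and the Rfc loader places the Pcna clamp that holds the replicative polymerases. In human and mouse cells many of these genes are E2F targets, transcribed late in G1 and in S phase. Embryonic and extraembryonic stem cells divide quickly in culture, and such transcripts are common in them.

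The cells' libraries held 6288 to 503044 reads, with a median of 266046, and 349 to 5514 genes with a read, while the bulk library held 47121 reads. Levels are given as CPM (reads of a gene scaled to a common library total), and 5 CPM is the threshold for detection. For bulk 1 read equals 21.2 CPM, and for single cells it equals 1.99 to 159 CPM. Record lengths were not used, so the CPM of different genes are not set against each other, and a low level of a gene and a low number of its reads captured cannot be told apart. The cells carried hypoblast markers, of which 9 of 10 were detected in at least 17 cells, Gata6 in 28 and Gata4 in 26. Of 5 pluripotency, 8 fibroblast, 6 trophoblast and 5 blood markers with a record, none reached 17 cells. The summed pluripotency markers ranged from 0 to 2740 CPM in the cells and were 42.4 CPM in bulk. C74 was highest for Pou5f1, at 1170 CPM (93.4% of its signal), and for Dppa3, at 1564 CPM, and detected 7 of the 10 hypoblast markers. The part of that signal in the results was not tested. Esrrb, Thy1, Lum, Cdx2, Ascl2, Hbb, Tal1 and Cd34 had 0 reads in cells and bulk. The placental gene Plac1 was detected in 4 cells and had 26 bulk reads (552 CPM), and Prl3d1 had 0 reads in the cells and 12 in bulk (255 CPM). The summed trophoblast markers were 849 CPM in bulk and 0 to 839 CPM in the cells, and their part in the differences between cells and bulk was not tested. The summed fibroblast markers ranged from 0 to 3139 CPM in the cells and were 1719 CPM in bulk, and Col1a2, a collagen gene, was detected in 4 cells (C14, C17, C30 and C46). C14 and C30 held 1906 and 2126 CPM of Col1a2 and detected 1 and 2 of the 10 hypoblast markers. Of the 34 cells, 9 (C03, C09, C14, C30, C31, C74, C88, C94 and C95) held under 50000 reads or under 2000 genes with a read, and results that lean on them are given with the other 25 cells as well. The 25 are called the deeper cells below, although C03, C09, C31, C74 and C95 were left out for few genes, not few reads. C74 and C95 held 431709 and 450250 reads, so this choice is not a control for depth alone.

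Regulatory sequence in front of the members was read from RefSeq promoters of the GRCr8 build, which cover 35 of the 42 members. The members without a promoter in that table are Orc1, Cdc6, Mcm4, Rpa3, Rrm2, Ccne2 and E2f1. The 250 bases before the annotated start were searched on both strands for the E2F words TTTCCCGC, TTTGGCGC, TTTCGCGC and TTTGCCGC. At least 1 of them was found for 10 of the 35 members (28.6%), against 1.73% of all 33469 promoters in the table and 2.21% of the 21851 promoters of protein-coding genes. The CCAAT box, CCAAT on either strand, was found for 17 members (48.6%), against 34.0% of all promoters. The CHR element, TTTGAA, known from genes of G2 and mitosis, was found for 4 members (11.4%), against 16.2%. A match describes the letters in the window only, and a member without a match lacks these words in that window.

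**Figure D1:**
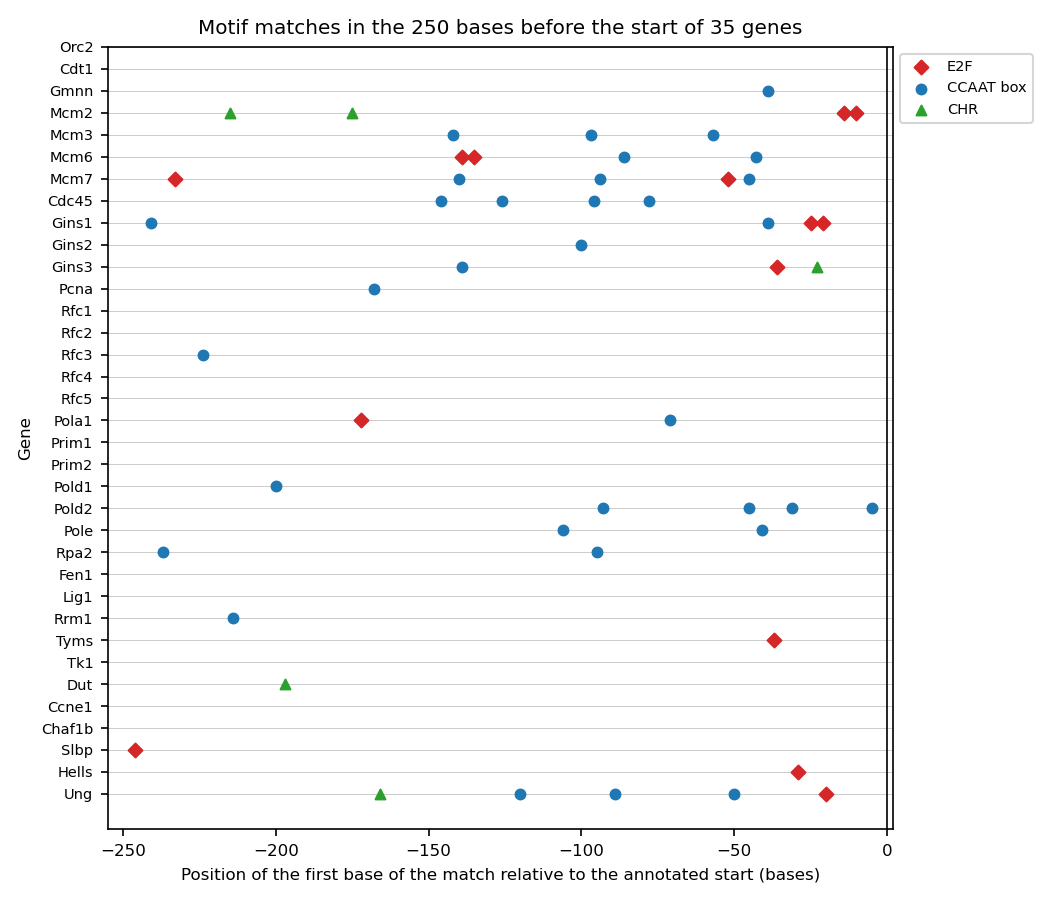
Positions of matches to the E2F words, the CCAAT box and the CHR element in the 250 bases before the annotated start of 35 member genes (x axis, bases relative to the start; y axis, genes in the order of their roles; each point is the first base of a match). E2F words were found for 10 genes and lay within 60 bases of the start in 7 of them.

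The E2F windows are printed because this element was found in a larger share of the members' promoters than of all promoters. Each is written 5′ to 3′ along the gene's own strand, with the E2F word or overlapping words in capitals and up to 16 bases on either side, fewer where the searched stretch ends. In Mcm2, Mcm6 and Gins1 words on opposite strands overlap each other. In the Mcm7 window nearer to the start, a CCAAT box overlaps the word, and no CHR element overlapped any of them.
Mcm2, chr4:122918095-122918124, minus strand: ggtcacgtgacccggtTTTCGCGCGAAAac
Mcm6, chr13:42404464-42404507, minus strand: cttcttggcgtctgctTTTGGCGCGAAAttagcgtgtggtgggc
Mcm7 nearer to the start, chr12:22163207-22163246, minus strand: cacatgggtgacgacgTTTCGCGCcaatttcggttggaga
Mcm7 farther from the start, chr12:22163388-22163427, minus strand: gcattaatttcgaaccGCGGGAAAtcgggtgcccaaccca
Gins1, chr3:160184879-160184919, plus strand: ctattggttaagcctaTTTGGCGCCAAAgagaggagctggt
Gins3, chr19:9434692-9434731, minus strand: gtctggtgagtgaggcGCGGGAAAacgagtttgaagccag
Pola1, chrX:62342504-62342543, minus strand: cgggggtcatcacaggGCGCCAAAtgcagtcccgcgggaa
Tyms, chr9:120776097-120776136, minus strand: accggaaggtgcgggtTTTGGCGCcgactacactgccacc
Slbp, chr14:81295998-81296025, plus strand: cattTTTCCCGCccttctggacggctgc
Hells, chr1:246114084-246114123, plus strand: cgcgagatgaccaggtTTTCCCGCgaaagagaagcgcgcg
Ung, chr12:48154046-48154081, minus strand: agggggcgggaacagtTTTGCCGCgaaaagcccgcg

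Role classes differed in how widely their genes were detected. Of the 42 members, 23 (54.8%) were detected in at least 17 of the 34 cells. The same held for 27.3% of the genes with any read in a cell and for 43.8% of those whose mean over cells was 10 CPM or more, a level that 41 of the members reached. All 5 Mcm genes, all 6 clamp and loader genes and all 5 nucleotide genes were in that number. Only 1 of 5 licensing genes, 1 of 4 helicase activation genes and 1 of 6 polymerase and primase genes were, and 0 of 3 G1/S regulators. At 50 CPM the number was 13 of 42, and among the 25 deeper cells 32 of 42 were detected in at least 13. No share of all genes is given at these settings, so these counts are not set against a background. Every member was detected in some cell and was without a read in at least 3, so the lowest level over cells was 0 CPM for each of them.

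**Figure D2:**
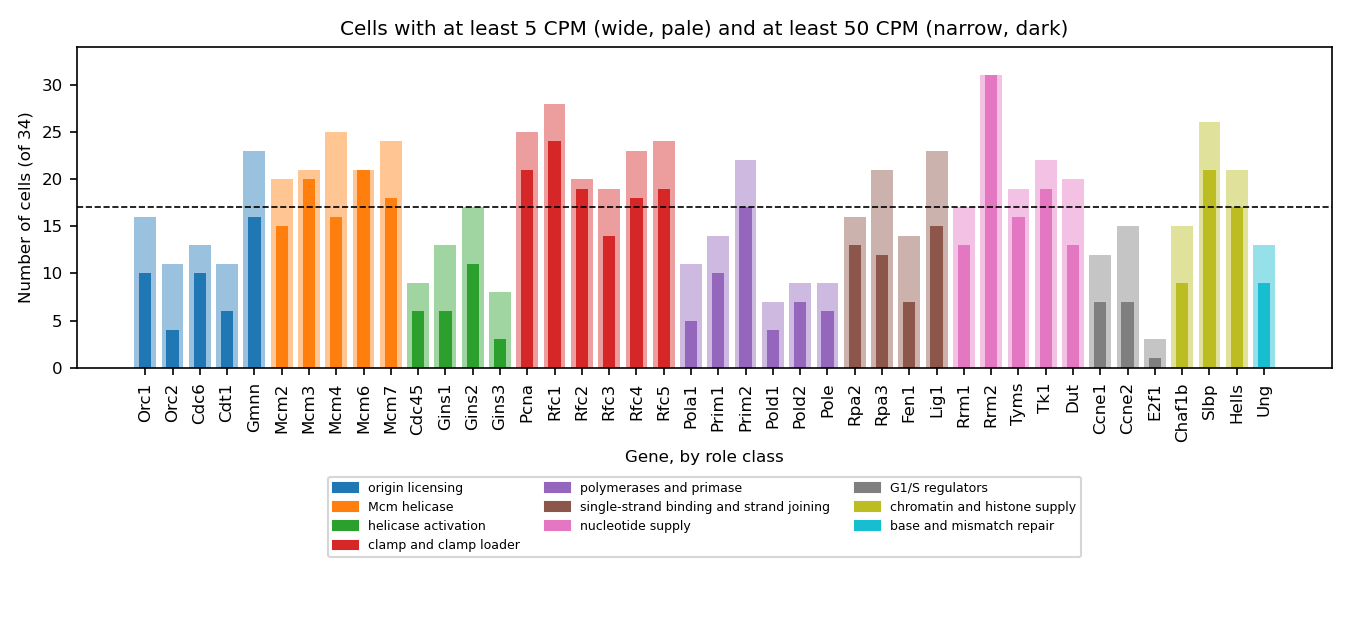
Number of cells, of 34, in which each of the 42 genes reached 5 CPM (wide pale bars) and 50 CPM (narrow dark bars), coloured by role class, with a dashed line at 17 cells. The bars of the Mcm, clamp and loader, and nucleotide classes reach the line at 5 CPM, led by Rrm2 with 31 cells, while E2f1 has 3.

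Licensing factors were uneven. Gmnn, the inhibitor that binds Cdt1 after origins have fired, was detected in 23 cells (67.6%, exact Clopper-Pearson 95% interval 49.5% to 82.6%) at 84.4 ± 106 CPM. Its median over cells was 48.9 CPM and its highest level, in C80, was 521 CPM. Orc1, the largest subunit of the origin recognition complex, was detected in 16 cells at 67.9 ± 134 CPM, with the highest level, 596 CPM, in C33. Cdc6, which brings the helicase to origins, was detected in 13 cells at 171 ± 404 CPM and had a median of 0. Its signal lay in few cells: C44 held 1708 CPM, C40 1421 CPM and C26 879 CPM. Cdt1, the partner of Cdc6 in loading, was detected in 11 cells, at most at 255 CPM in C74. Orc2, another subunit of the origin complex, was also detected in 11 cells, at most at 164 CPM in C10. Of the 11 cells with Cdt1, 10 also held Gmnn, while 13 cells held Gmnn without Cdt1.

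The Mcm helicase genes were each detected in 20 to 25 cells. Mcm4 was detected in 25 cells (73.5%, interval 55.6% to 87.1%) at 110 ± 140 CPM, with a median of 42.4 CPM and a highest level of 463 CPM in C44. Mcm7 was detected in 24 cells at 269 ± 349 CPM, with a median of 124 CPM, and was highest in C72 and C23, at 1272 and 1016 CPM. Mcm6 and Mcm3 were each detected in 21 cells, at 274 ± 378 and 129 ± 176 CPM. The highest Mcm6 level, 1839 CPM, was in C95, a cell with few genes. Mcm2 was detected in 20 cells at 168 ± 280 CPM, led by C32 with 1152 CPM. Co-detection was frequent: Mcm4 was detected in all 20 cells with Mcm2 and in 22 of the 24 cells with Mcm7, and 12 cells held all 5.

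Helicase activators were found in fewer cells. Gins2 was detected in 17 cells at 88.6 ± 150 CPM, highest in C13 and C24, at 517 and 490 CPM. Gins1 was detected in 13 cells, at most at 178 CPM in C44. Cdc45 was detected in 9 cells, highest in C72 and C46, at 305 and 283 CPM. Gins3 was detected in 8 cells at 23.5 ± 81.5 CPM, and C40 alone, with 415 CPM, held 51.9% of the signal. Its mean without C40 was 11.7 CPM. The GINS proteins act as 1 complex, but Gins1 and Gins2 were detected together in 10 cells and Gins3 was found with Gins1 in 3 cells and with Gins2 in 5.

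All genes of the clamp and its loader were detected in 19 to 28 cells. Rfc1, the large subunit of the loader, was detected in 28 cells (82.4%, interval 65.5% to 93.2%) at 261 ± 293 CPM with a median of 205 CPM. Its highest levels were 1413 CPM in C09 and 826 CPM in C96. Pcna, the sliding clamp, was detected in 25 cells with a median of 106 CPM, and its mean of 294 ± 905 CPM leaned on C39. That cell held 5308 CPM, 53.2% of the signal, the next highest was C40 with 708 CPM, and the mean without C39 was 142 CPM. The small subunits Rfc5, Rfc4, Rfc2 and Rfc3 were detected in 24, 23, 20 and 19 cells. Rfc3, at 104 ± 270 CPM, was also led by 1 cell, C74, with 1568 CPM, and had a mean of 59.4 CPM without it. In C31, Rfc4 made up 91.9% of the summed level of all members, at 1542 CPM.

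Among polymerases and primase, Prim2, the large primase subunit, stood out for its detection in 22 cells (64.7%, interval 46.5% to 80.3%), at 111 ± 128 CPM and at most 429 CPM in C47. Prim1, the catalytic primase subunit, was detected in 14 cells, 13 of which held Prim2. C24 held 740 CPM of Prim1, and the mean of 52.3 CPM was 31.4 CPM without that cell. Pola1, the catalytic subunit of polymerase alpha, was detected in 11 cells, all of which held Rfc4. The catalytic subunits of polymerases epsilon (Pole) and delta (Pold1) were detected in 9 and 7 cells, and Pold2, another subunit of delta, in 9. Pold1 (20.6%, interval 8.70% to 37.9%) had its highest levels in C44 and C13, at 196 and 180 CPM.

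Proteins that coat and join single strands were represented by 4 members. Lig1, the ligase that seals Okazaki fragments, was detected in 23 cells at 96.5 ± 218 CPM, with a median of 36.4 CPM. The highest value, 1255 CPM in C88, was the only member signal of that shallow cell and rested on 16 reads, and the mean without it was 61.4 CPM. Rpa3 and Rpa2, subunits of the single-strand binding complex, were detected in 21 and 16 cells, with 14 in common. Fen1, the flap endonuclease that trims Okazaki fragments, was detected in 14 cells at 28.7 ± 57.1 CPM, at most at 262 CPM in C54.

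Nucleotide supply genes included the most widely detected member. Rrm2, the small subunit of ribonucleotide reductase, whose level limits the enzyme, was detected in 31 cells (91.2%, interval 76.3% to 98.1%) and at 50 CPM or more in the same number. Its level was 1460 ± 1601 CPM, with a median of 876 CPM and highest levels of 5649 CPM in C23 and 4993 CPM in C32. It held 27.9% of all member reads in the cells. Rrm1, the large subunit, was detected in 17 cells, all with Rrm2, at 138 ± 215 CPM. Tk1, the thymidine kinase of S phase, was detected in 22 cells at 183 ± 218 CPM, again all with Rrm2, which only 3 of the 34 cells lacked. Tyms, thymidylate synthase, was detected in 19 cells at 85.5 ± 113 CPM. Dut, which removes dUTP, was detected in 20 cells, and C45 alone, with 2493 CPM, held 64.1% of its signal. The Dut mean of 114 CPM was 42.2 CPM without C45.

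G1/S regulators had no member in 17 cells. Ccne2 and Ccne1, the cyclins E that drive entry into S phase, were detected in 15 and 12 cells, with 5 cells in common. Ccne1 was at 117 ± 278 CPM. Its highest value, 1272 CPM, was the only member signal of the shallowest cell, C94, and rested on 8 reads. C32 and C47 followed with 754 and 593 CPM. E2f1, the founding E2F factor, was detected in C17, C80 and C43 only, with 13 reads in all. C17 held 69.7% of the summed E2f1 CPM, at 61.5 CPM, on 4 reads, while C80 held 7 reads.

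Of the remaining members, Slbp, which binds the stem-loop of histone messages, was detected in 26 cells (76.5%, interval 58.8% to 89.3%) at 161 ± 227 CPM and was highest in C80, at 1195 CPM. Hells, a chromatin remodeller of the SNF2 family, was detected in 21 cells at 272 ± 423 CPM, with highest levels of 1915 CPM in C38 and 1027 CPM in C24. Chaf1b, a subunit of the histone chaperone CAF-1, was detected in 15 cells, at most at 274 CPM in C47. Ung, a uracil-DNA glycosylase, was detected in 13 cells, with 632 CPM in C40 and 454 CPM in C24.

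A single cell held over 50% of the summed CPM of 4 members, Gins3, Pcna, Dut and E2f1. Of the 41 members with a mean of 10 CPM or more, 3 were among them, and 17.3% of all genes with such a mean had this property. Leaving out the highest cell lowered the mean by more than 1.5 times for these 4 and for Rfc3, Prim1 and Lig1.

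**Figure D3:**
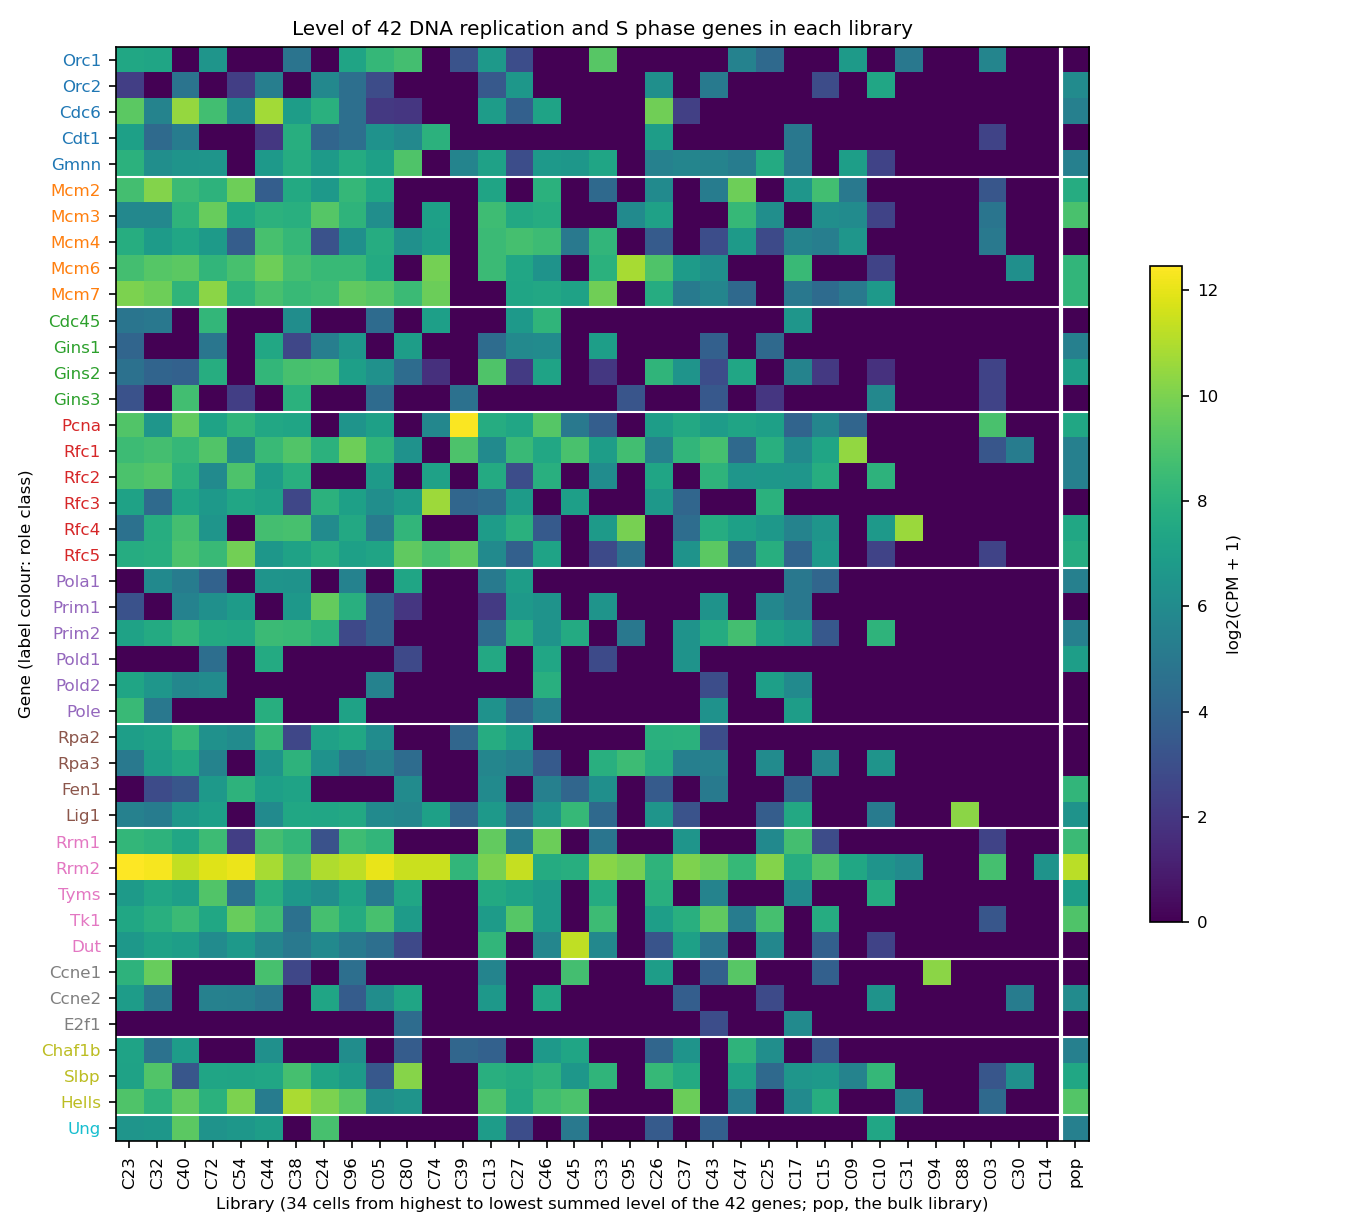
Level of each of the 42 genes (rows, grouped by role class, label colours) in each of 34 cells and the bulk library pop (columns), as log2(CPM + 1), with cells ordered by their summed level from C23 to C14. Colours are to be read along a row. Cells on the left hold most members, up to 37 of 42 in C23, and cells on the right few, down to 1 in C14, C88 and C94.

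Cells differed widely in how much of this programme they held. The summed level of the 42 members ranged from 84.1 CPM in C14 to 13689 CPM in C23, with a median of 5292 CPM. Among the 25 deeper cells it ranged from 1960 CPM in C10 to 13689 CPM, a 6.99-fold range, with a median of 6882 CPM. C23, C32, C40 and C72 were highest, at 13689, 12797, 11915 and 11218 CPM, and held 34 to 37 members each. Without Rrm2 the median over the 34 cells was 3965 CPM and C40, C44 and C38 led, at 9371, 9088 and 8364 CPM. Of the 9 shallow or gene-poor cells, 8 lay below the median of all cells. C74, the cell with the highest Pou5f1 level, was the exception at 7586 CPM. The cells with Col1a2 lay at 84.1 CPM (C14), 220 CPM (C30), 2429 CPM (C17) and 5946 CPM (C46), and the part of that signal in the result was not tested.

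The number of members detected in a cell went from 1 to 37, with a median of 23. It followed the number of genes found in the cell, with a Spearman's rho of 0.80 over 34 cells and 0.56 over the 25 deeper ones, a description in which both counts share a library. After each cell of at least 50000 reads was thinned to that number, the 30 cells held between 4 (C31) and 35 (C13) members, with a median of 22. The summed level had a rho of 0.53 with the number of genes and 0.46 with reads over 34 cells, and of 0.20 and 0.04 over the 25 deeper cells.

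Members were compared with each other over the 25 deeper cells. The median Spearman's rho of the 861 pairs of members was 0.16 and 76.7% were above 0. Over all pairs of the 6819 genes that averaged 10 CPM or more in these cells, the median was 0.04 and 57.4% were above 0. Genes in a pair share libraries, depth and sparse counts, so these values describe these cells and carry no test. The highest rho was that of Cdc6 and Mcm6 (0.78), followed by Rfc4 and Pola1 (0.74), Cdc6 and Rpa2 (0.74) and Mcm6 and Rpa2 (0.71). All 13 cells with Cdc6 also held Mcm6 and Mcm3, which were found in 18 and 17 of the 25 cells. Rpa2, found in 16 of the 25, was held by 12 of them. The same 13 cells held Mcm4, Rfc1, Rrm2, Tyms, Tk1 and Slbp, whose rho with Cdc6 ranged from 0.19 (Rfc1) to 0.52 (Tyms). These genes were each found in 19 (Tyms) to 25 (Rrm2) of the 25 cells, so such overlap is common here. Rrm1 and Rrm2, partners in 1 enzyme, had a rho of 0.20, Ccne1 and Ccne2 one of -0.16, and Orc1 and Orc2 one of -0.34, with 4 cells holding both.

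Each member was also set against the summed level of the other members. Of the 41 members with a mean of at least 10 CPM in the 25 cells, 14 (34.1%) had a rho of 0.4 or more, a threshold chosen after the values were seen, against 5.66% of all such genes. Mcm7 (0.70), Cdc6 (0.68), Mcm6 (0.62), Rfc3 (0.57) and Rpa2 (0.55) had the highest values. Rrm2, Rfc5, Cdt1 and Hells lay between 0.45 and 0.47. At the other end Orc2 (0.01), Chaf1b (0.06), Slbp (0.06), Pold1 (0.07) and Ccne1 (0.10) had the lowest values. The medians were 0.30 for the members and 0.06 for all genes.

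Further replication genes were listed beside the members. Of 28 with a record, 10 were detected in at least 17 cells and none was without detection. That number of cells was reached by 27.3% of all genes with a read in a cell and 43.8% of those averaging 10 CPM or more. Top1, a topoisomerase, was detected in 26 cells, Cdk2, the kinase partner of cyclin E, in 24, and Timeless and Tipin, which form a fork protection complex, in 22 each. Orc6, a further origin complex subunit, was also in 22. Of the 26 with a mean of at least 10 CPM in the deeper cells, 4 reached a rho of 0.4 with the summed level of the members. These were the helicase activation factor Mcm10 (0.73, detected in 7 cells), the polymerase epsilon subunit Pole2 (0.63, in 9 cells), Gins4 (0.57, in 17 cells) and Timeless (0.40). Top1 had a rho of -0.33.

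Most regulators that act before S phase were detected in under 17 cells, as were most genes with a read: 27.3% of those reached 17 cells. Of 12 G1 genes, Cdk4, a partner of cyclin D, was detected in 27 cells at 224 ± 175 CPM and the cyclin gene Ccnd3 in 21 cells, and these 2 alone reached 17 cells. The inhibitor gene Cdkn1a was detected in 13 cells, Ccnd1 in 12, Cdkn1b and Myc in 11 each, and Cdkn2a had 0 reads in cells and bulk. The Myc mean of 370 CPM rested on the shallow cell C94, with 11132 CPM. None of the 6 genes of this list with a mean of at least 10 CPM in the deeper cells reached a rho of 0.4 with the members' sum.

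The order of the cells by replication transcripts was not their order by mitosis transcripts. The summed level of 17 G2/M genes had a Spearman's rho of 0.09 with that of the members over 34 cells and of -0.09 over the 25 deeper cells, or -0.11 after thinning. Of the deeper cells, 6 lay above the median of both sums, 6 above that of the members only, 6 above that of the G2/M genes only and 7 above neither. C44 and C54 held 10891 and 10892 CPM of member transcripts beside 205 and 211 CPM of G2/M transcripts, and C23 held 13689 beside 415 CPM. C25 and C37 were the reverse, with 3543 and 3981 CPM of member transcripts beside 6767 and 6681 CPM of G2/M transcripts. C05, C96 and C80 held much of both, at 8066, 8461 and 7593 CPM of members and 5470, 4714 and 4788 CPM of G2/M transcripts. C15, C43 and C10 held little of either, with 2363, 3975 and 1960 CPM of members and 126, 182 and 732 CPM of G2/M transcripts. The gene-poor cell C03 had the highest G2/M sum of all, 12907 CPM, and a member sum of 1104 CPM.

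**Figure D4:**
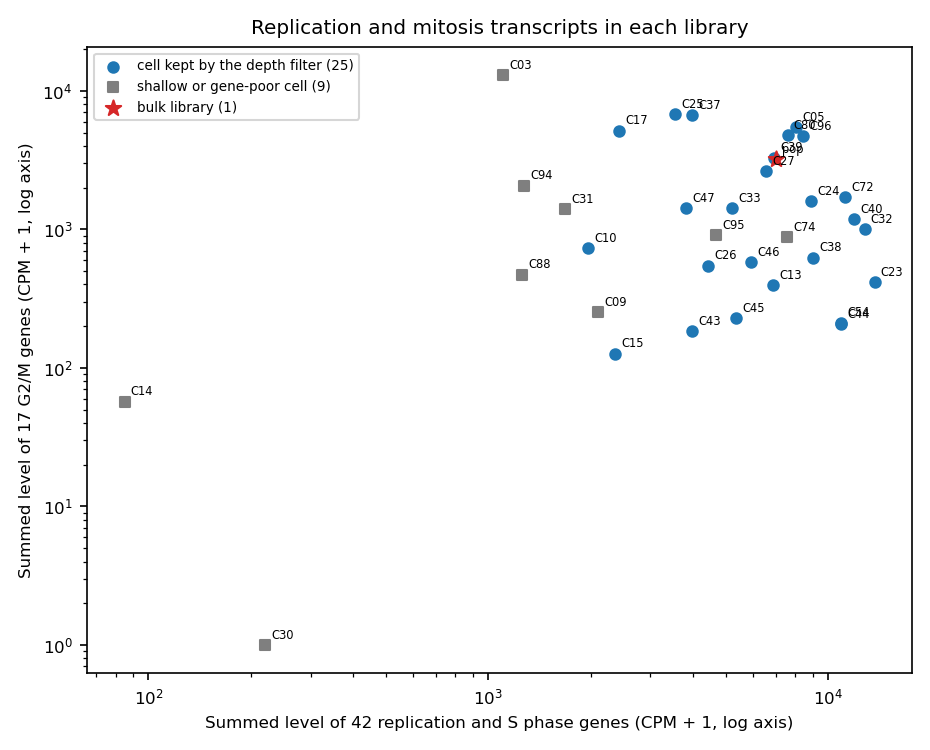
Summed level of the 42 replication and S phase genes (x axis) against the summed level of 17 G2/M genes (y axis), both as CPM + 1 on log axes, for 25 deeper cells (circles), 9 shallow or gene-poor cells (squares) and the bulk library (star). The deeper cells spread over a 6.99-fold range on the x axis and a 53.7-fold range on the y axis, and C44, C54 and C23 lie at the lower right while C25, C37 and C17 lie at the upper left.

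Single members ranged from negative to positive against the G2/M sum over the 25 deeper cells. The lowest rho were those of Rfc2 (-0.59), Ccne1 (-0.54), Ung (-0.47) and Fen1 (-0.41), and the highest those of Orc1 (0.36) and Gmnn (0.24). The median of 41 members was -0.04, with 26 below 0, against a median of 0.01 over all genes, of which 47.4% were below 0. The G2/M genes themselves, each against the sum of the others, had a median of 0.58, and all 16 with a mean of at least 10 CPM were above 0. These values are descriptions over cells and carry no test.

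Of the 330 member reads in the bulk population, 108 were of Rrm2, and 14 of the 42 members had no bulk read. The members summed to 7003 CPM in bulk and to 5789 ± 3840 CPM in the cells, and 12 of 34 cells lay above the bulk value. In a bulk library, fewer cells with a transcript and less of it per cell cannot be told apart. A ratio of cells to bulk was taken on log2(CPM + 1) for the 41 members whose 2 levels averaged 10 CPM or more. The median log2 ratio was 0.18, against -0.01 over all 6452 such genes, and -0.29 over the 28 members with a bulk read, against -0.66 over all 4741 such genes. Which of the medians was higher depended on the filter and the scaling. With a filter of 1 CPM it was 0.29 for the members against 1.61 for all genes, with no filter 0.29 against 0.94, and with TMM factors 0.19 against 0.21. In all, 22 of the 41 members were higher in the cells, with 49.8% of all genes so. By a factor of 2, 17 members were higher in the cells (34.8% of all genes) and 8 higher in bulk (30.6%). No test was possible with 1 sample a group. Of the 17, 13 had no bulk read and passed the filter only through the cells. These were 13 of the 41 members, and 26.5% of all 6452 genes past the filter also had no bulk read.

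Several members were higher in bulk than the counting error of the bulk reads spans. Fen1 was 297 CPM in bulk (14 reads), 10.3-fold the mean of the cells (exact Poisson 95% interval of the bulk reads 5.65 to 17.3). No cell reached the bulk level, the closest being C54. Pold1, with 6 bulk reads, was 6.56-fold higher in bulk (2.41 to 14.3). Mcm3 was 467 CPM in bulk, 3.62-fold higher (2.27 to 5.47), and 2 of 34 cells lay above that. Tk1 was 2.90-fold (1.87 to 4.27), Rrm1 2.61-fold (1.52 to 4.19) and Hells 2.03-fold higher in bulk (1.33 to 2.97). Against the mean of the 25 deeper cells the ratios were 7.60 for Fen1, 4.82 for Pold1, 2.84 for Mcm3, 2.13 for Tk1, 1.92 for Rrm1 and 1.5 for Hells, so that Rrm1 and Hells were no longer past 2-fold. Such a call was made for these 6 of the 41 members, a smaller share than the 19.3% of all genes. Rrm2 was 2292 CPM in bulk, 1.57-fold the mean of the cells (1.29 to 1.90), and 10 cells lay above the bulk level.

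In the other direction, Rfc1 had 2 bulk reads, 42.4 CPM, and was 6.15-fold higher in the cells (1.70 to 50.8), with 25 of 34 cells above the bulk level. Cdc6, also with 2 bulk reads, was 4.04-fold higher (1.12 to 33.3), and 11 cells lay above the bulk level. Without C44 the ratio was 2.94-fold. Leaving out C44 lowered the mean 1.37-fold, more than the lower bound of 1.12, so the interval left out 1 only with that cell. A count of 0 in bulk allows up to 3 reads, or 63.7 CPM. Against that floor the cells' mean was at least 1.84-fold higher for Ccne1, 1.80-fold for Dut, 1.72-fold for Mcm4 and 1.63-fold for Rfc3, for independent reads. Mcm4 kept a bound of 1.56-fold without its highest cell and Ccne1 one of 1.29-fold, while Dut without C45 and Rfc3 without C74 were under the floor. These 6 of 41 members were called higher in the cells at 2-fold on log2(CPM + 1) with an interval that left out 1, as were 10.7% of all genes. Of them, Ccne1, Dut, Mcm4 and Rfc3 had no bulk read, passed the filter only through the cells and had bounds under 2-fold. With the bulk reads halved, since even counts were in excess, Rfc1 alone was called higher in the cells (4.05% of all genes) and the same 6 members higher in bulk (11.9%). Orc1 and Rpa2 lay at 1.07 and 1.05 times the floor, and the means of Cdt1, Cdc45, Gins3, Prim1, Pold2, Pole, Rpa3 and E2f1 were at or under it, so no fold is given for them.

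**Figure D5:**
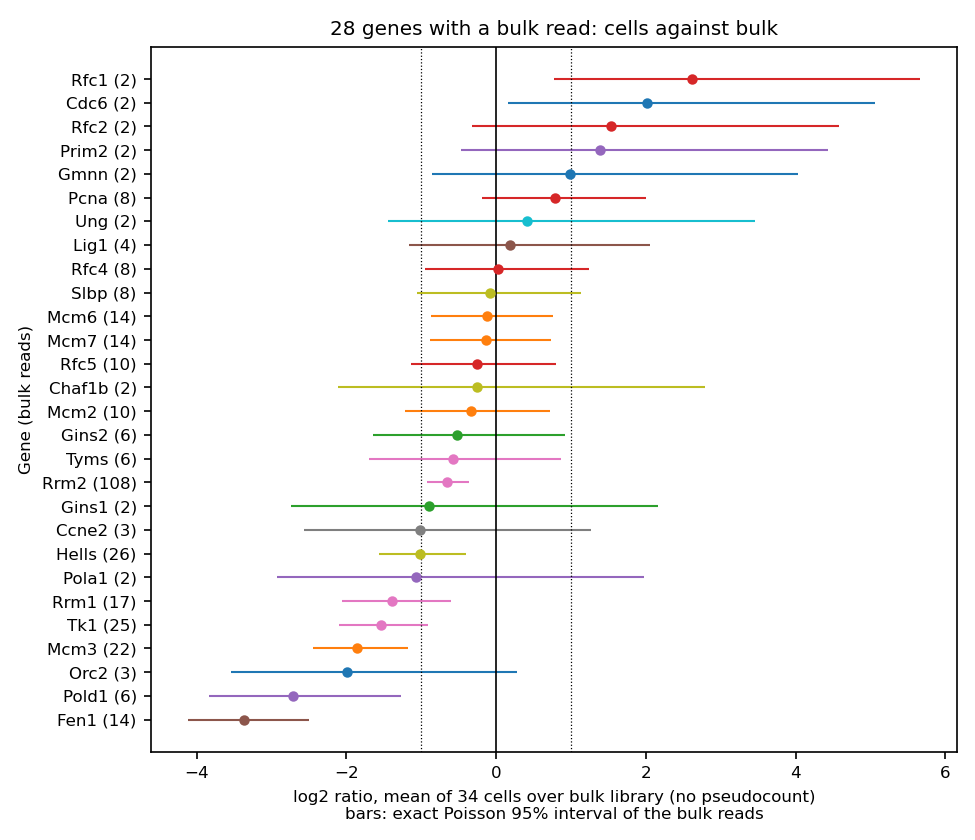
Ratio of the mean of 34 cells to the bulk library, on a log2 axis, for the 28 members with a bulk read (number of reads in parentheses), with exact Poisson 95% intervals of the bulk reads as bars and dotted lines at 2-fold. Fen1, Pold1 and Mcm3 lie to the left with intervals past the line at 2-fold, and the intervals of most members cross the line of equal levels.

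Members with intermediate ratios included the rest of the Mcm genes. Mcm2, Mcm6 and Mcm7 in bulk were 1.26-fold (0.605 to 2.32), 1.09-fold (0.594 to 1.82) and 1.10-fold (0.603 to 1.85) the mean of the cells. Slbp was at 1.06-fold (0.456 to 2.08). Pcna was 1.73-fold higher in the cells (0.878 to 4.01) and, without C39, 0.835 times the bulk level. With 8 to 14 bulk reads behind each of these, a difference of these sizes was not detectable at this depth.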

How the data were processed

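The authors deposited 1 table of raw read counts per transcript record for the 34 single-cell libraries and the bulk library. Cells were handled on the Fluidigm C1 system, which isolates them in chambers, and libraries made with Nextera XT, per the labels' protocols. Per the submitters' processing notes, TopHat2 and rn5 were used. Not given in the sources used here are the read counter, annotation, strand and treatment of multi-mapping reads, so members with near-identical copies or overlapping genes are uncertain. No molecular identifiers are mentioned, and even numbers made up 62.4% of the nonzero member counts in the cells and 85.7% in bulk, more than independent reads would give. Poisson intervals and floors cover counting error of independent bulk reads only and are too narrow. The Clopper-Pearson intervals treat the 34 cells, which count as 1 sample, as independent draws. They cover neither counting error of reads nor spread between cultures.

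Of 17201 records, 16215 matched a symbol in the RefSeq gene table, and each member had 1 record. CPM were computed from the counts and column totals with Python 3.11.15 (pandas 2.3.3, numpy 2.4.6, scipy 1.17.1). The cells' level is the mean over 34 cells of equal weight, and intervals are exact at 95%. Filters of 10 CPM and a pseudocount of 1 CPM apply to cells against bulk. No pair of cells held identical counts, and no doublet caller was run. Alternatives were other thresholds, pseudocounts and filters, thinning to 50000 reads, TMM factors (edgeR 4.0.16 in R 4.3.3, used for these factors only), totals without Rn45s, and cells left out. Named genes were, in each role class, the 2 members found in the most cells and the 1 in the fewest, members led by 1 cell, and those past 2-fold of bulk with an interval that leaves out 1, with further members described for their roles. The members, lists and thresholds were chosen with earlier results of these data known.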

Additional observations from a re-analysis of the deposited data

How the results depend on the processing

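Detection of members in at least 17 cells held at 23 of 42 with 1 read as the threshold, after thinning (at least 15 of 30 cells) and without Rn45s. It was 25 without the cells with Col1a2 and 32 over the 25 deeper cells, and was 13 at 50 CPM. No share of all genes is given for these alternatives. In cells against bulk, each gene's median cell was taken as its level. The median log2 ratio was then -1.94 over 30 members, against -4.29 over all genes. Of the 30, 6 were higher in the cells (15.2% of all genes), 3 of them past 2-fold (8.30%), and 22 were past 2-fold in bulk (73.9%). A gene found in under 17 cells has a level of 0 by this measure. Placing members without a bulk read at the floor left 4 past 2-fold in the cells in place of 17 (10.8% of all genes in place of 34.8%). A filter of 1 CPM, no filter and TMM factors each put the members' median ratio below that of all genes. Without the shallow or gene-poor cells 5 members in place of 8 were past 2-fold in bulk (27.6% of all genes in place of 30.6%). Halving bulk reads was an alternative chosen after the data were seen, like the floor, the cells with Col1a2 and the sum without Rrm2. With it, 1 member (Rfc1) in place of 6 was called higher in the cells with an interval that leaves out 1 (4.05% of all genes). The 6 members called higher in bulk stayed so (11.9% of all genes). The rho of the member and G2/M sums was 0.09, -0.09 over the 25 deeper cells, -0.11 after thinning, and 0.01 without Rrm2 (-0.22 without Rrm2 over the deeper cells). Means of 7 members (Gins3, Pcna, Rfc3, Prim1, Lig1, Dut and E2f1) were lower by more than 1.5 times without the highest cell. No paired analysis was possible because the labels give the cells and the bulk library no shared replicate numbers. Depth limits the comparison with bulk, which holds 330 member reads, and the shallowest cells, of which C14, C30, C94 and C88 hold 3, 6, 8 and 16 member reads.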
